A study of Mus musculus with 26 samples.

Results

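The 9 genes described here encode transcription factors, granule proteins and surface receptors of natural killer (NK) cells and related innate lymphocytes: Tbx21, Eomes, Nkg7, Gzma, Gzmb, Klrk1, Klrd1, Klrb1c and Ncr1. They are 9 of the 21887 protein-coding genes of the mouse gene table (GRCm38.p6, the assembly of mm10) and were chosen by name. Every deposited H3K4me3 peak that touched the annotated span of a gene or the 5 kb on either side of it was assigned to that gene. H3K4me3, trimethylation of lysine 4 of histone H3, is found where transcription starts, at genes in use or held ready. The mark was profiled by chromatin immunoprecipitation in Ebf1-/- progenitors, which lack the transcription factor that specifies B cells, and in Early-B cells made from the same Ebf1-/- progenitors. For Early-B cells, EBF1 was returned from the MigR1-EBF1.ER vector and the cells were kept for 2 days on OP9 stroma with IL-7, SCF and FLT3-L. The EBF1.ER product was induced by 4-O-Hydroxy-tamoxifen. The culture of the progenitors, and whether they carried an empty vector, is not stated in the labels, so EBF1 and culture cannot be told apart. The labels name 2 immunoprecipitated and 2 input DNA samples per group, but 1 peak list per group was analysed. There was therefore no spread between replicates, no test was possible, and the depth behind each peak is unknown.

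NK cells kill infected or transformed cells without prior priming by releasing granules that hold perforin and granzymes. Their activity is set by the balance of activating and inhibitory receptors, many of them lectin-like proteins encoded together on mouse chromosome 6. The T-box factors T-bet, encoded by Tbx21, and EOMES direct NK cell maturation. NK cells, T cells and B cells share lymphoid progenitors, and EBF1 is known for restricting such progenitors to the B lineage.

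The promoters are shown because the start sites of these genes differed both in H3K4me3 and in base composition. Each sequence is the 250 bases before the annotated start site, 5′ to 3′ (RefSeq, GRCm38.p6). Start sites of 8 of the 9 genes were in the promoter table, and Klrd1 was not matched there. The first 4 sequences lie at start sites that a peak of at least 1 list covered, and the last 2 at start sites that no peak covered. Capitals mark matches, on either strand, to the T-box letters GGTGTGA, the RUNX letters TGTGGT, the ETS letters GGAAGT or the EBF1 letters CCCNNGGG.
Tbx21, chr11:97115332-97115581, minus strand: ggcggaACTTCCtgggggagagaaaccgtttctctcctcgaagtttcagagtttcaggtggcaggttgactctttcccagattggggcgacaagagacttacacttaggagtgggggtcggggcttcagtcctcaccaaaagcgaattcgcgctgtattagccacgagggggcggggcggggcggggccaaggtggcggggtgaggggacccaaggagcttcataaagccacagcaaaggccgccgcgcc
Eomes, chr9:118477939-118478188, plus strand: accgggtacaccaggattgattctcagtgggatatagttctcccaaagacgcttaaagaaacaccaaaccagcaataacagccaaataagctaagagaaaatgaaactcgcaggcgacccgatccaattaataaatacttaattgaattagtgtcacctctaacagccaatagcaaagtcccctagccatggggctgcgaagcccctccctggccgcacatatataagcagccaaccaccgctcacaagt
Nkg7, chr7:43436888-43437137, plus strand: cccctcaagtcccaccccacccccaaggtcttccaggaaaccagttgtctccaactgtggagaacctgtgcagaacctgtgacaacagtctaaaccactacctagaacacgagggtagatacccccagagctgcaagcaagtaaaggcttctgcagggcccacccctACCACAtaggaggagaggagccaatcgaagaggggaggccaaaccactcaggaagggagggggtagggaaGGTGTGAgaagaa
Gzma, chr13:113100982-113101231, minus strand: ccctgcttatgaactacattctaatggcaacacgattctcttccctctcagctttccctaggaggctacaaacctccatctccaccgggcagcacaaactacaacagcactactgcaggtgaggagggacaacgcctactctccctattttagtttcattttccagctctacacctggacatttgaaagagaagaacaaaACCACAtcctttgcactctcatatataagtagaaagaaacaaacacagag
Gzmb, chr14:56262335-56262584, minus strand: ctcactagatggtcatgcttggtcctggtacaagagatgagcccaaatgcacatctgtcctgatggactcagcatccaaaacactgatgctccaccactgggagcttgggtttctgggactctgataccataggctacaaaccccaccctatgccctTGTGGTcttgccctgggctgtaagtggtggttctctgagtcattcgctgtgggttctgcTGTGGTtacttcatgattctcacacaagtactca
Klrk1, chr6:129623865-129624114, minus strand: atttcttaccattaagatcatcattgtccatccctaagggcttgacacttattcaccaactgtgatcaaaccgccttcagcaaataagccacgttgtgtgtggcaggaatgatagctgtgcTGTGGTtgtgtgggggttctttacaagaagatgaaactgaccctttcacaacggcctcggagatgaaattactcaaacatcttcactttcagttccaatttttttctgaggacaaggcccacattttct

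CG dinucleotides, which are dense at many H3K4me3-marked promoters, numbered 16 before Tbx21 and 8 before Eomes, against a median of 10 over 21263 promoter windows of coding genes. The other genes had few: 4 before Klrk1, 3 before Gzma, 2 before Nkg7, 1 before Gzmb, 1 before Klrb1c and 0 before Ncr1. Among all windows with 11 or more CG dinucleotides, a progenitor peak covered the start site in 84.9% and an Early-B peak in 85.7%. Among windows with 0 to 2, the shares were 7.62% and 10.2%. The covered start sites of Nkg7 and Gzma thus lay in classes of promoters that seldom carried a peak, since only 23.3% of windows with 3 to 5 CG dinucleotides, the class of Gzma, were covered in progenitors.

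RUNX letters, a sequence bound by the RUNX factors of lymphocytes, were present before 6 of the 8 genes and absent before Tbx21 and Eomes. Over all windows the share was 12.4%, and over the windows with 4 or fewer CG dinucleotides 17.4%. Gzmb and Ncr1 each held 2 matches, as 1.04% of windows did with 2 or more. Nkg7 held the T-box letters from base 13 to base 7 before its start site, where 3.08% of windows have a match. ETS letters were present before Tbx21 and Klrb1c (20.4% of windows), and EBF1 letters before none of the 8 genes (13.5% of windows). E-box letters (CANNTG, not capitalised) were present before 7 of 8, against 62.8% of windows. RUNX matches do not overlap the T-box match in any of these windows. A match describes the letters only.

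Of the 9 genes, 6 had a peak in both lists, none in 1 list only, and Klrb1c, Ncr1 and Gzmb had none in either. Over all coding genes, 64.5% had a peak in both lists and 25.3% had none, while 8.47% had one in the Early-B list alone and 1.76% in the progenitor list alone. These genes had 9 Early-B and 10 progenitor peaks. An overlap of at least 1 bp with the other list was found for 8 of the former and 8 of the latter, against 49.6% of all Early-B and 77.2% of all progenitor peaks. The authors' q was at most 0.05 for 7 of the 9 and 7 of the 10, close to the 66.8% and 66.6% of the whole lists. At the start site itself, the count was lower: Tbx21, Eomes and Gzma were covered in both lists, Nkg7 in progenitors only, and Gzmb, Klrk1, Klrb1c and Ncr1 in neither. Of the start sites of all coding genes, both lists covered 52.3%, the progenitor list alone 1.96%, the Early-B list alone 4.3% and neither 41.5%. Within 1 kb of the start site, 4 genes had a peak in both lists, Klrk1 in the progenitor list alone and 3 none. Over all coding genes those shares were 55.0%, 2.07% and 38.2%, and 4.75% had such a peak in the Early-B list alone.

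**Figure D1:**
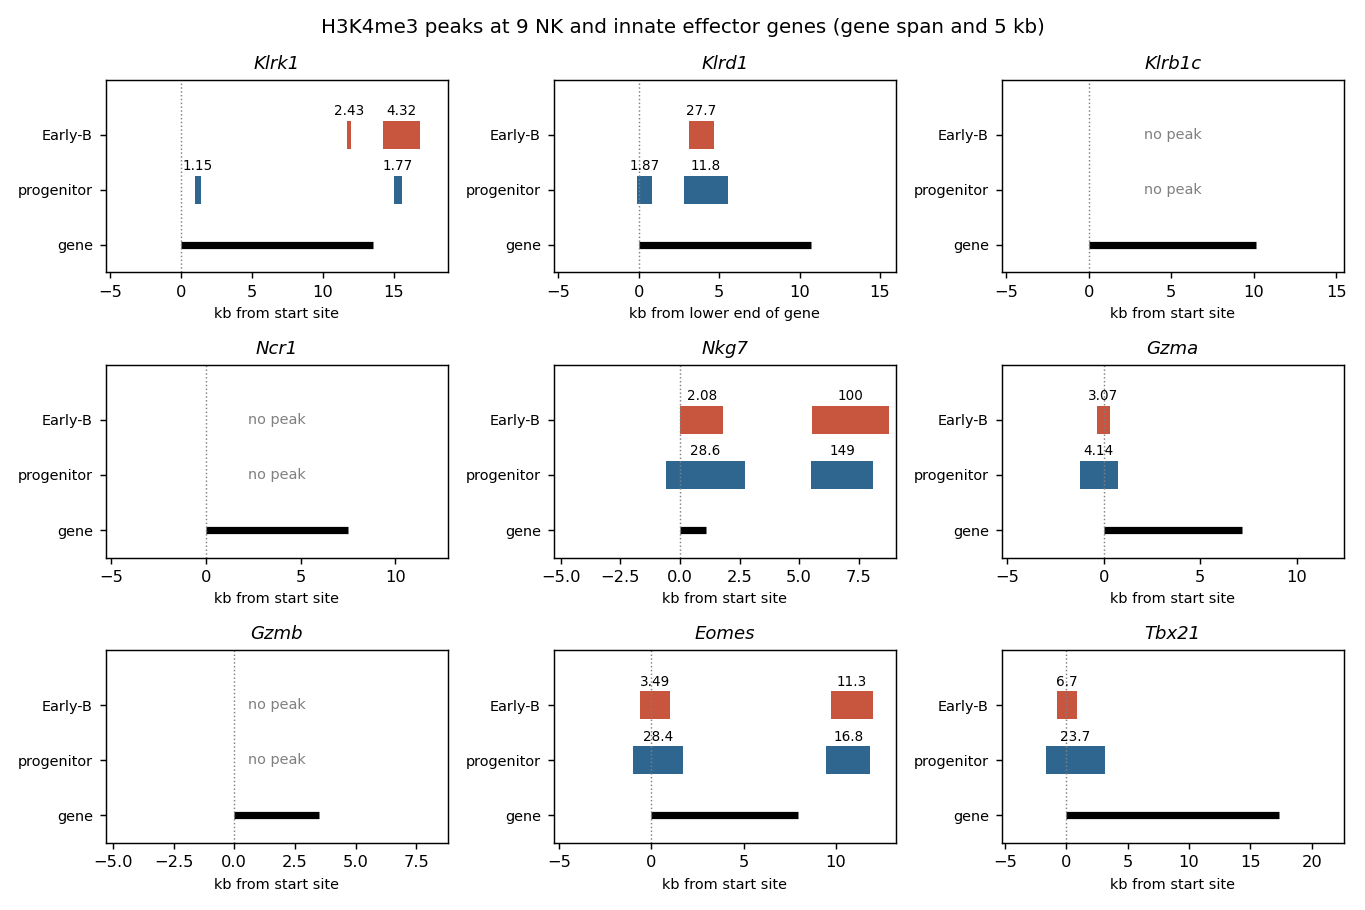
Peaks of each list (red, Early-B; blue, progenitor) at the 9 genes, drawn to scale against the gene (black); the x axis is the distance in kb from the annotated start site along the direction of transcription, except for Klrd1, where it is the distance from the lower-coordinate end. Numbers over the peaks are the authors' −log10 p. Progenitor peaks reach farther than Early-B peaks on both sides of the start sites of Tbx21, Eomes and Gzma, and Klrb1c, Ncr1 and Gzmb have no peak.

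Peak values are those of the authors' caller. The −log10 p ranks how far a peak stands above its background (higher is stronger), the fold enrichment is the ratio to that background, and q is the p-value corrected for the number of regions. These values and their ranks hold within a list and do not measure change between lists. Peak length also moves with depth and threshold, so that the lengths of both lists are read against all other peaks.

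Tbx21 encodes T-bet, the factor of terminal NK and type 1 lymphocyte programmes. Its gene lies on the minus strand of chromosome 11, from 97098007 to 97115331. The progenitor peak ran from 97112227 to 97116993, 4767 bp, with a −log10 p of 23.7, a fold enrichment of 5.40 and a pileup of 41.1. The Early-B peak ran from 97114477 to 97116131, 1655 bp, with a −log10 p of 6.70, a fold of 3.01 and a pileup of 21.1. The shorter peak lay wholly inside the longer one. From the start site the progenitor peak reached 1662 bp upstream and 3104 bp into the gene, and the Early-B peak 800 and 854 bp. Most of the difference was inside the gene, where the progenitor peak reached 2250 bp farther, against 862 bp farther upstream. Over 10849 start sites of coding genes covered in both lists, the median reach was 970 bp upstream and 1756 bp downstream in progenitors and 1209 and 1874 bp in Early-B. Tbx21 was therefore wider than the median gene in progenitors and narrower in Early-B.

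Eomes encodes EOMES, the T-box relative of T-bet, and lies on the plus strand of chromosome 9 from 118478186 to 118486132. Its start site had a progenitor peak of 2747 bp, from 118477175 to 118479921 (−log10 p 28.4, fold 6.46), and an Early-B peak of 1632 bp, from 118477562 to 118479193 (3.49, fold 2.27). As at Tbx21, the Early-B peak lay inside the progenitor peak. It ended 387 bp earlier upstream and 728 bp earlier downstream. Both peaks also covered the start site of the lncRNA gene Gm33408, so the mark there belongs to either or both. A second pair of peaks beyond the 3′ end of Eomes covered the start site of another lncRNA gene, Gm33460, with lengths of 2384 bp in progenitors (fold 4.56) and 2263 bp in Early-B (fold 3.73). The order of these neighbours differed between the lists. In progenitors the fold at the Eomes start was 1.42 times that at Gm33460, and in Early-B it was 0.608 times.

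Nkg7 encodes a small membrane protein of cytotoxic granules. The gene occupies 43437138 to 43438246 on the plus strand of chromosome 7. The progenitor peak, from 43436557 to 43439859 (3303 bp, −log10 p 28.6, fold 6.17), covered the whole gene and its start site. The Early-B peak, from 43437160 to 43438958 (1799 bp, 2.08, fold 1.83), began 22 bp after the start site and had an authors' q of 0.281. The class of Nkg7 as a start site covered in progenitors only thus rests on 22 bp, and with a window of 1 kb around the start site it had a peak in both lists. A strong peak in the same window covered the start site of Etfb, a mitochondrial electron transfer gene, and met Cldnd2. It measured 2627 bp in progenitors (−log10 p 149, fold 17.0) and 3209 bp in Early-B (100.3, fold 14.0). Set against this neighbour, the fold at Nkg7 was 0.362 times as high in progenitors and 0.131 times in Early-B.

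Gzma and Gzmb encode granzymes A and B, the serine proteases that granules deliver into target cells. Gzma, on the minus strand of chromosome 13 from 113093824 to 113100981, lies within the longer span of Cdc20b. Its start site had a progenitor peak of 1950 bp (113100260 to 113102209, −log10 p 4.14, fold 2.41, q 0.00394) and an Early-B peak of 672 bp (113100663 to 113101334, 3.07, fold 2.15, q 0.0383). These were weak peaks: 40.6% of progenitor and 35.4% of Early-B peaks had a lower fold within their own list. Gzmb, on chromosome 14 from 56258836 to 56262334, had no peak, and the nearest progenitor peak was 141 kb away. The nearest Early-B peak, 20.6 kb beyond its start-site end, had a length of 1749 bp, a −log10 p of 17.8 and no progenitor peak under it. It met no annotated gene.

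**Figure D2:**
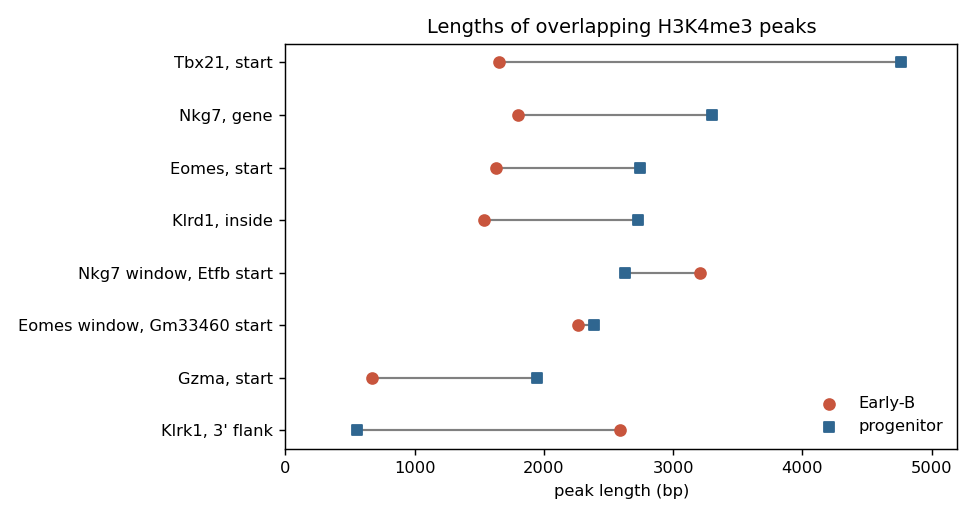
Lengths in bp of the 8 pairs of overlapping peaks in the windows of these genes, 1 point per list (red circles, Early-B; blue squares, progenitor) joined by a line. The progenitor peak is the longer in 6 pairs, with the widest gap at the Tbx21 start (4767 against 1655 bp), and the Early-B peak is the longer at the Etfb start and in the 3′ flank of Klrk1.

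No peak covered the start site of Klrk1, Klrb1c or Ncr1, and the start site of Klrd1, the other receptor gene, was not in the table. Klrd1 encodes CD94, which pairs with NKG2 proteins to read MHC class I, and spans 129588092 to 129598775 on chromosome 6. The main peak inside it measured 2729 bp in progenitors (129590907 to 129593635, −log10 p 11.8, fold 3.78) and 1535 bp in Early-B (129591219 to 129592753, 27.7, fold 5.92). Within their own lists, 74.4% of Early-B peaks had a lower fold than the Early-B one and 56.3% of progenitor peaks a lower fold than the progenitor one. Those shares were 53.0% and 63.0% at the Tbx21 start, 38.8% and 65.2% at the Eomes start and 22.4% and 64.7% at Nkg7. For the overlapping pair in the 3′ flank of Klrk1 they were 41.4% and 18.2%. A further progenitor peak of 902 bp over the lower-coordinate end of Klrd1 had a q of 0.52.

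Klrk1 encodes NKG2D, the activating receptor for stress-induced ligands, on the minus strand of chromosome 6 from 129610323 to 129623903. No peak covered its start site. The peak nearest to it was a 420-bp progenitor peak that began 966 bp inside the gene and had a q of 1. Beyond the 3′ end, the Early-B list held a 2592-bp peak (129606993 to 129609584, −log10 p 4.32, fold 2.38) and the progenitor list a 551-bp peak inside it (1.77, q 0.653). Peaks covered more bases of the window in Early-B at Klrk1 and fewer at the other 5 genes with peaks. Fewer bases in Early-B were found at 32.4% of coding genes with peaks in both lists. With no flank that difference turned to 123 bp fewer in Early-B, since it rests on the peak outside the gene.

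Klrb1c encodes NK1.1, the receptor by which NK cells of C57BL/6 mice are commonly recognised, and spans 128778485 to 128788641 on the minus strand of chromosome 6. It had no peak within 5 kb. With a 10 kb flank it had peaks in both lists, covering 6416 bp of that window in Early-B and 1441 bp in progenitors. Upstream, a 5995-bp Early-B peak (−log10 p 58.7) began 5.82 kb from the gene and covered the start site of the lncRNA gene Gm34755, where the progenitor list held peaks of 931 bp (7.21) and 2242 bp (242). On the other side, a pair of overlapping peaks 16.9 kb away that met no annotated gene measured 2004 bp in progenitors (292) and 1831 bp in Early-B (165). Ncr1 encodes NKp46, an activating receptor found on NK cells and some innate lymphoid cells, on the plus strand of chromosome 7 from 4337715 to 4345184. Its nearest peaks were 18.3 kb away in Early-B (713 bp, −log10 p 3.27, inside Gp6) and 62.1 kb away in progenitors. Klr and granzyme genes have close copies, and the treatment of reads that map to several places is not stated in the labels.

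Across the 8 overlapping pairs in these windows, the progenitor peak was the longer in 6, with a median ratio of progenitor to Early-B length of 1.73. Over all 22623 pairs that met one to one, the progenitor peak was the longer in 37.0% and the median ratio was 0.900. Among the 6367 pairs whose progenitor −log10 p lay between 4.14 and 28.6, the range of the start-site peaks of these genes, the share was 46.0%. That range was chosen after the values were seen. At start sites covered in both lists the progenitor peak was the longer at 3 of 3 genes, by ratios of 2.88 at Tbx21, 1.68 at Eomes and 2.90 at Gzma. It was the longer at 35.6% of the 9145 coding genes of that kind, where the median ratio was 0.927. A lower ratio was found at 99.5% of them for Tbx21, 96.7% for Eomes and 99.5% for Gzma. Most of the 9145 genes had far stronger start-site peaks, however. Their median −log10 p was 129 (Early-B list) and 181 (progenitor list). Tbx21, Eomes and Gzma had values from 3.07 to 6.70 (Early-B list) and from 4.14 to 28.4 (progenitor list). Whether the ranks would hold among genes with peaks as weak was not tested. These figures describe 1 pair of lists and are no test.

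**Figure D3:**
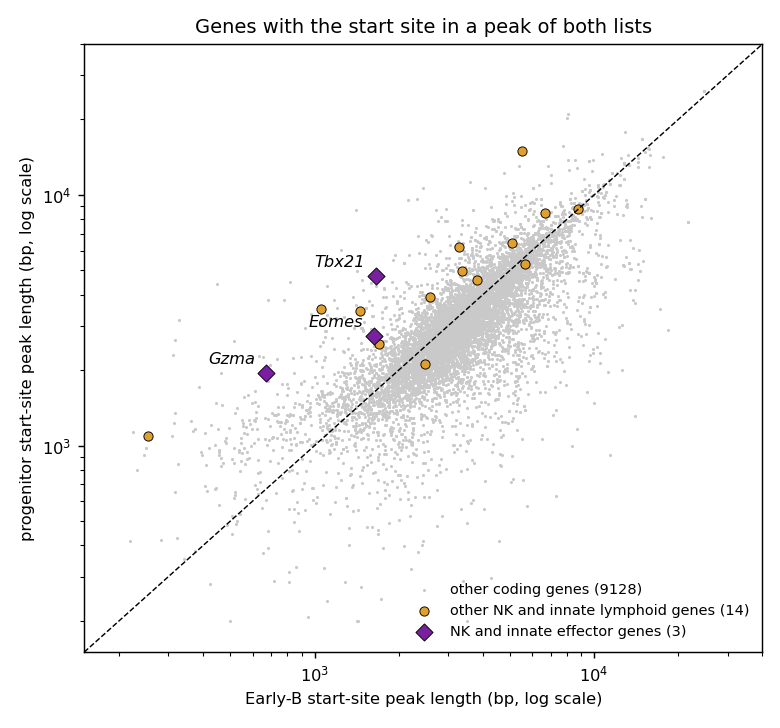
Length in bp of the start-site peak in Early-B (x axis, log scale) and progenitors (y axis, log scale) for the 9145 coding genes covered in both lists, 1 point per gene, with the line of equal length dashed. Tbx21, Eomes and Gzma (purple) lie above the line, as do 12 of 14 other NK and innate lymphoid genes (orange); most other genes (grey) lie below it.

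Other NK and innate lymphoid genes, a list of 32 of which 31 were matched, mostly had the longer start-site peak in progenitors too. Of the 14 with the start site covered in both lists, 12 had the longer peak in progenitors and 2, Serpinb9 and Il7r, in Early-B. The median ratio was 1.48. Over all coding genes so covered, 35.6% had the longer peak in progenitors and the median ratio was 0.927. Prf1, which encodes the pore-forming perforin that granzymes need, had 1095 bp in progenitors and 254 bp in Early-B. The Early-B peaks of Prf1 and of the next gene, Xcl1, were weak, with −log10 p values of 2.21 and 2.91 against a list median of 5.98. The chemokine gene Xcl1 had 3517 and 1051 bp, the receptor gene Il12rb2 3427 and 1454 bp, and Cd244a, encoding the NK receptor 2B4, 6220 and 3280 bp. Il18r1, a subunit of the IL-18 receptor, had 6409 and 5105 bp, and Fcer1g, the adaptor of several activating receptors, 4576 and 3800 bp. Id2, the E protein inhibitor needed for NK cells, was nearly equal with 8801 and 8762 bp. Of the 21 with a start site, 4 others, Slamf7, Rora, Itga2 and Tigit, were covered in Early-B only, and none in progenitors only. Those shares over all coding genes were 4.3% and 1.96%. Slamf7 and Rora also had a progenitor peak within 1 kb of the start site. All genes of this list named here except Il18r1, Fcer1g and Id2 were named after their values were seen.

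Housekeeping genes had the longer start-site peak in progenitors at 2 of 11, against 35.6% of all coding genes covered in both lists. Their median ratio was 0.925, close to the 0.927 of all those genes. Of 8 adaptor and signalling genes of NK receptors with a start site, 7 were covered in both lists, and the progenitor peak was the longer at 3 of them. Those 3, Sh2d1b1, Fcer1g and Hcst, are already counted among the 14 above, and the 4 not shared with that list, Plcg2, Lcp2, Syk and Vav1, had the longer peak in Early-B. Hcst, encoding the NKG2D adaptor DAP10, had peaks of 14962 bp in progenitors and 5514 bp in Early-B that also cover the start site of Nfkbid. The window of Hcst held 2 Early-B peaks, covering 10853 bp of it, and 1 progenitor peak, covering 12138 bp. The covered lengths thus differed far less than the lengths of the start-site peaks. Plcg2, a phospholipase shared with B cell receptor signalling, had 4578 and 9244 bp. Whether any of these lists differs from the 9 genes was not tested.

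**Figure D4:**
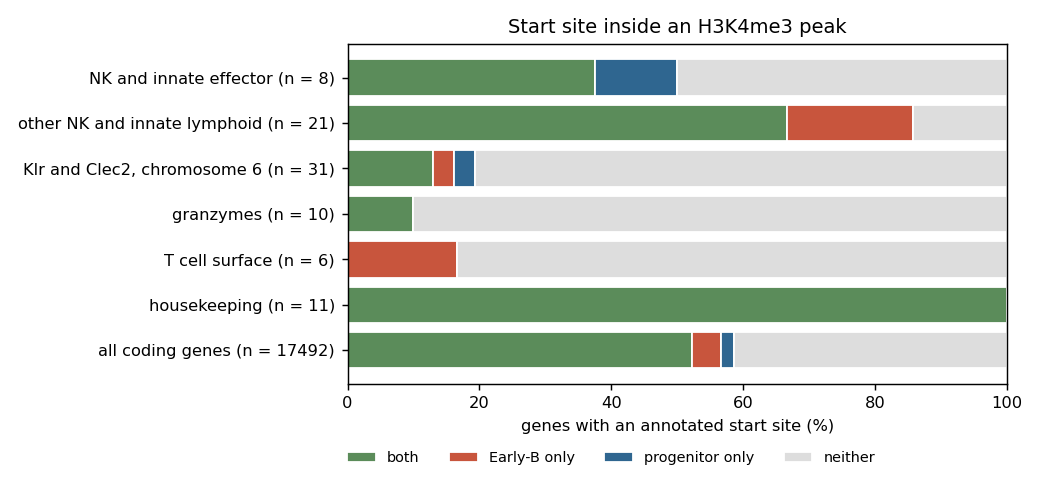
Share of genes (x axis, percent of those with an annotated start site) whose start site lay in a peak of both lists (green), of 1 list (red, Early-B; blue, progenitor) or of neither (grey), for 6 gene lists and all coding genes. Of the 8 NK and innate effector genes, 3 are covered in both lists, 1 in progenitors only and 4 in neither; the Klr and Clec2 genes and the granzymes are mostly uncovered.

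The families around the receptors and granzymes mostly had no peak over their start sites. Of the start sites of all coding genes, neither list covered 41.5% and both lists 52.3%. The Early-B list alone covered 4.3% and the progenitor list alone 1.96%. Of 31 Klr and Clec2 genes of chromosome 6 with an annotated start site, 25 were covered in neither list, 4 in both, 1 in Early-B only (Clec2m) and 1 in progenitors only (Klrb1f). Of the 11 Klra genes, encoding Ly49 receptors for MHC class I, that the table places above the first 3 Mb of chromosome 6, 7 had no peak within 5 kb in either list and no start site was covered. Over all coding genes, 25.3% had no peak within 5 kb. Since reads of close gene copies may not have been placed, a missing peak here does not show that the mark is absent. Among 10 granzyme genes Gzma alone had a covered start site. Gzmm had peaks in both lists in its window and Gzmk in Early-B only (−log10 p 9.59). Those at Gzmm were strong (156 in Early-B and 196 in progenitors) but covered only 571 and 790 bp of the window. No peak lay within 1 kb of an annotated start site of Gzmm.

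Markers of other cells differed between the lists for some cell types and not for others. Start sites of B lineage markers were covered in Early-B only at 5 of 5 genes, among them Pax5 and Blnk. The shares over all coding genes were 4.3% for Early-B only and 1.96% for progenitors only. Igll1 and Vpreb1 shared the same 18321-bp Early-B peak, and Vpreb1 had a progenitor peak within 1 kb of its start site. Stromal markers were covered in Early-B only at 4 of 5, with start-site −log10 p values between 7.21 and 12.4. Among them, Pdgfra and Col1a2 also had a progenitor peak within 1 kb of the start site. Pdgfrb and Col1a1 had no start site in the promoter table. The window of Pdgfrb held 3220 bp of peaks in Early-B and 4107 bp in progenitors, and that of Col1a1 3318 and 2296 bp. Myeloid markers were covered in progenitors only at 2 of 3, Mpo (7.23) and Itgam (4.73). Other myeloid markers went the other way or had no peak: the window of Elane held 2447 bp of peaks in Early-B and 1992 bp in progenitors, that of Cd14 1833 and 886 bp, and Csf1r none. Of 5 T lineage markers with a start site, Lck was covered in both lists and Cd8a, Cd3e, Cd3g and Bcl11b in neither. Over all coding genes, neither list covered 41.5% of start sites. The window of Cd3g held 4441 bp of peaks in Early-B and 2330 bp in progenitors, and that of Cd3e 1391 and 1158 bp. That of Cd4, which had no start site in the promoter table, held 1775 and 1602 bp. Cd8a and Bcl11b had no peak in their windows. The part of other cells in the NK gene peaks was not tested, and in a bulk sample fewer marked cells and less mark per cell cannot be told apart.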

How the data were processed

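H3K4me3 peak lists of Early-B cells and Ebf1-/- progenitors, 1 per group, were analysed; the microRNA and Ago2 samples and Early-T cells were not used here. The submitters' processing notes name the builds mm10 and GRCh38 and the tools MACS 1.4.3 and Bowtie 1.1.2. What each served for, the settings, the use of input and any pooling of replicates are not stated there. Each list was matched to its group by its name. Per the file headers, the columns are position, length, pileup (the authors' coverage signal) and fold enrichment (the authors' ratio). Another pair of columns has damaged names and, by order and values, was taken for the authors' −log10 p and their −log10 q, as deposited. In no peak does the second exceed the first. Positions count from 1.

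The gene table and start sites are RefSeq, GRCm38.p6. A start site was covered when a peak contained it, and peaks were shared when they overlapped by at least 1 bp. There were 48054 Early-B and 31414 progenitor peaks, with a q above 0.05 for 33.2% and 33.4%. The lowest −log10 p was 1.01 in each list, so counts of peaks and overlaps without a further threshold include very weak peaks. Python 3.11.15, numpy 2.4.6, pandas 2.3.3 and matplotlib 3.10.9 were used, and the overlap code was checked on simulated lists.

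All 9 genes were named, whatever their values, with genes sharing their peaks and up to 6 genes per further list by −log10 p. Any other gene was picked with its values already known. The gene table places 105 of 21887 coding genes within the first 3 Mb of an autosome, where mm10 holds no sequence; they stayed in the totals. The genes and lists were chosen with earlier results of these data known. Alternatives were other flanks, thresholds, equal list lengths, a stricter overlap and, added after seeing the data, leaving out peaks over another coding gene's start site.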

Additional observations from a re-analysis of the deposited data

How the results depend on the processing

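No paired analysis was possible because each group had 1 peak list. With no flank, 5 of 6 Early-B and 5 of 7 progenitor peaks overlapped the other list, against 8 of 9 and 8 of 10. With a 1 kb flank 6 of 7 and 5 of 7 did. With a 10 kb flank 7 genes had a peak in both lists, Klrb1c being added. An overlap of at least 50% of both peaks left 5 and 5. At a q of at most 0.05, 1 gene had a peak in 1 list only (Klrk1, Early-B). At a q of at most 0.01 there were 2 (Klrk1, Early-B; Gzma, progenitors), with 5 Early-B peaks against 9, of which 4 met a progenitor peak, and 4 progenitor peaks meeting an Early-B peak. At a p of at most 1e-10, 3 genes had a peak in both lists against 6, and 1, Tbx21, in progenitors only. Of these 3, Klrd1 kept the Early-B peak inside the gene. Nkg7 and Eomes counted for Early-B through the Etfb and Gm33460 peaks alone, and their own Early-B peaks were lost. In all, 3 Early-B and 6 progenitor peaks were left, 3 of each list meeting the other. At equal list lengths 1 gene, Gzma, was in progenitors only. Nkg7 lost its own Early-B peak here too and kept 559 bp of the Etfb peak. Fewer peaks enter at each stricter threshold by construction. The Early-B minus progenitor covered length at Klrk1 was −123 bp with no flank, against 1918 bp. Tbx21, Eomes, Nkg7 and Klrd1 had less covered length in Early-B under all 8 settings that bear on it; at Nkg7 the difference was 22 bp with no flank. Leaving out peaks over another coding gene's start changed no count by over 1.5 times. With 1 list per group and no read counts, depth limits what a missing peak can show.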

Other observations

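Among the Klr and Clec2 genes of chromosome 6, the highest −log10 p values belonged to a pair of Clec2 genes, a family of lectin-like proteins that includes ligands of the Klrb1 receptors. Clec2i had start-site peaks of 9405 bp in progenitors (−log10 p 219) and 6018 bp in Early-B (138), which also cover the start site of BC035044, and Clec2d of 7140 bp (213) and 7652 bp (131). The receptor genes Klrb1a, Klrb1 and Klrb1c had no peak within 5 kb in either list, and Klrb1b had weak ones in both (451 bp, 2.59, in Early-B; 1098 bp, 1.73, in progenitors). The start site of Klrb1f was covered by a 5190-bp progenitor peak (20.01) and by no Early-B peak, while the Early-B list held a peak elsewhere in its window (62.4).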
